A study of Rattus norvegicus with 2 samples.

Results

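The miRNAs described here are rno-miR-15b, rno-miR-16, rno-miR-195, rno-miR-497, rno-miR-322 and rno-miR-503, which make up the rat family of miR-15, miR-16 and miR-195 on this array, together with rno-miR-103 and rno-miR-107, where rno marks the rat and is left out below. They were chosen by name, 8 of the 350 rat miRNAs on the array, and compared as the 4 pairs miR-15b/miR-16, miR-195/miR-497, miR-322/miR-503 and miR-103/miR-107. The study set squamous cell carcinoma of the rat tongue against normal tongue on Agilent 1-colour miRNA microarrays. Male Sprague-Dawley (SD) rats, 6-7 weeks of age in the labels, took 4NQO, a carcinogen that forms DNA adducts, at 0.02 g/l, or distilled water alone, 20 rats per arm, and tumours or normal tongues were collected at the end of week 36. RNA was extracted from 7 tumours and 7 normal tissues, and 2 arrays were analysed, 1 labelled tumour and 1 labelled normal. The sources used here do not say whether an array held RNA of 1 animal or a pool.

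A miRNA guides the silencing complex to messenger RNAs that pair with its seed, bases 2 to 8 from the 5′ end. This family is known for repressing cyclins, cyclin-dependent kinases and the survival factor BCL2, so it holds back entry into the cell cycle. miR-103 and miR-107 begin with nearly the same bases and are known as regulators of insulin sensitivity and of Dicer, the enzyme that cuts miRNA precursors.

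All 16 probes of the 8 miRNAs matched RefSeq mature sequences of build GRCr8 exactly. The sequences are printed because the family is defined by them, with the seed in capitals and each miRNA in its 5′ to 3′ direction.
miR-15b: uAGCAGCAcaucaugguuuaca
miR-16: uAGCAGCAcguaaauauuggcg
miR-195: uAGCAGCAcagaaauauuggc
miR-497: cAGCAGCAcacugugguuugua
miR-322: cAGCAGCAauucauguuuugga
miR-503: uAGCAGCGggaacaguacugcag
miR-103: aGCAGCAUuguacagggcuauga
miR-107: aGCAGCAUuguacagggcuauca
The first 5 share 1 seed, and no other mature sequence of the RefSeq rat table holds it. miR-503 differs from them at the last base of the seed. miR-103 and miR-107 carry the same run of bases as the first 5, set 1 base closer to the 5′ end, so their seed is a different one.

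The pairs also differ in where their genes lie. miR-15b (chr2:155555197-155555218, plus strand, GRCr8) and miR-16 (chr2:155555343-155555364, plus strand) start 146 bases apart within the bounds of Smc4, which encodes a condensin subunit. miR-497 (chr10:55450172-55450193, plus strand) and miR-195 (chr10:55450509-55450529, plus strand) start 337 bases apart, outside the RefSeq genes other than miRNAs. miR-322 (chrX:137726198-137726219, minus strand) and miR-503 (chrX:137725899-137725921, minus strand) start 299 bases apart within the bounds of the long noncoding RNA gene LOC102550366. miR-103 has 2 loci, 1 in Pank2 (chr3:138963278-138963300, plus strand) and 1 in Pank3 (hairpin at chr10:20748474-20748559, plus strand), and miR-107 lies in Pank1 (chr1:241750431-241750453, minus strand). Pank1, Pank2 and Pank3 encode pantothenate kinases, which start the synthesis of coenzyme A. The array's own grid names build rn4, and no coordinate was taken from it.

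Since each group had 1 array, the differences have no replicate check, and no test between groups was made. Every error comes from spots within the arrays. An SD is the spread over the spots of 1 probe on 1 array. A spot SE is the standard error of a log2 ratio, or of a mean or difference of ratios, from the spots of both arrays. A difference of 2-fold or more is a rule of size. The labels are used as names of the arrays, since they could not be checked from the files. miR-21 and miR-31, known to be raised in many carcinomas and singled out here after their values were seen, had log2 ratios of -3.26 and -3.93 on the tumour-labelled over the normal-labelled array, the latter the lowest of the 85 miRNAs measured on both. If the labels were exchanged, every log2 ratio below would change its sign and the differences between miRNAs would keep their size. miRNAs of skeletal muscle were far brighter on the tumour-labelled array: 5 of the 7 on the muscle list were measured, their summed scaled level was 14.7 there and 2.51 on the normal-labelled array, and miR-208 and miR-499 were detected on neither. All 7 epithelial markers were measured, with a summed level of 3.75 and 6.42 and log2 ratios between -1.26 and -0.24. Without scaling between the arrays that direction turned for most of them, with a range from -0.34 to 0.69. Then 5 of the 7 were above 0, as were 65 of the 85 miRNAs measured on both arrays. The part of tissue composition in the values below was not tested, and in tissue RNA fewer cells of a type cannot be told apart from less miRNA per cell.

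Of the 8 miRNAs, 7 were measured on both arrays and miR-503 on neither. miR-195, miR-497 and miR-322 had higher scaled levels on the tumour-labelled array, miR-15b and miR-16 lower ones, and miR-103 and miR-107 lay between. Scaled levels are spot means divided by the array's 75th percentile, and a log2 ratio is the tumour-labelled array over the normal-labelled array. Only miR-15b reached 2-fold, and it was lower. Thus 1 of 7 was at least 2-fold lower, where 22.4% of all 85 miRNAs measured on both arrays were, and 0 of 7 were at least 2-fold higher, where 12.9% of the 85 were. The median log2 ratio of the 7 was -0.15, against -0.46 over the 85, and the 7 ran from -1.05 to 0.70, against -3.93 to 3.72.

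**Figure D1:**
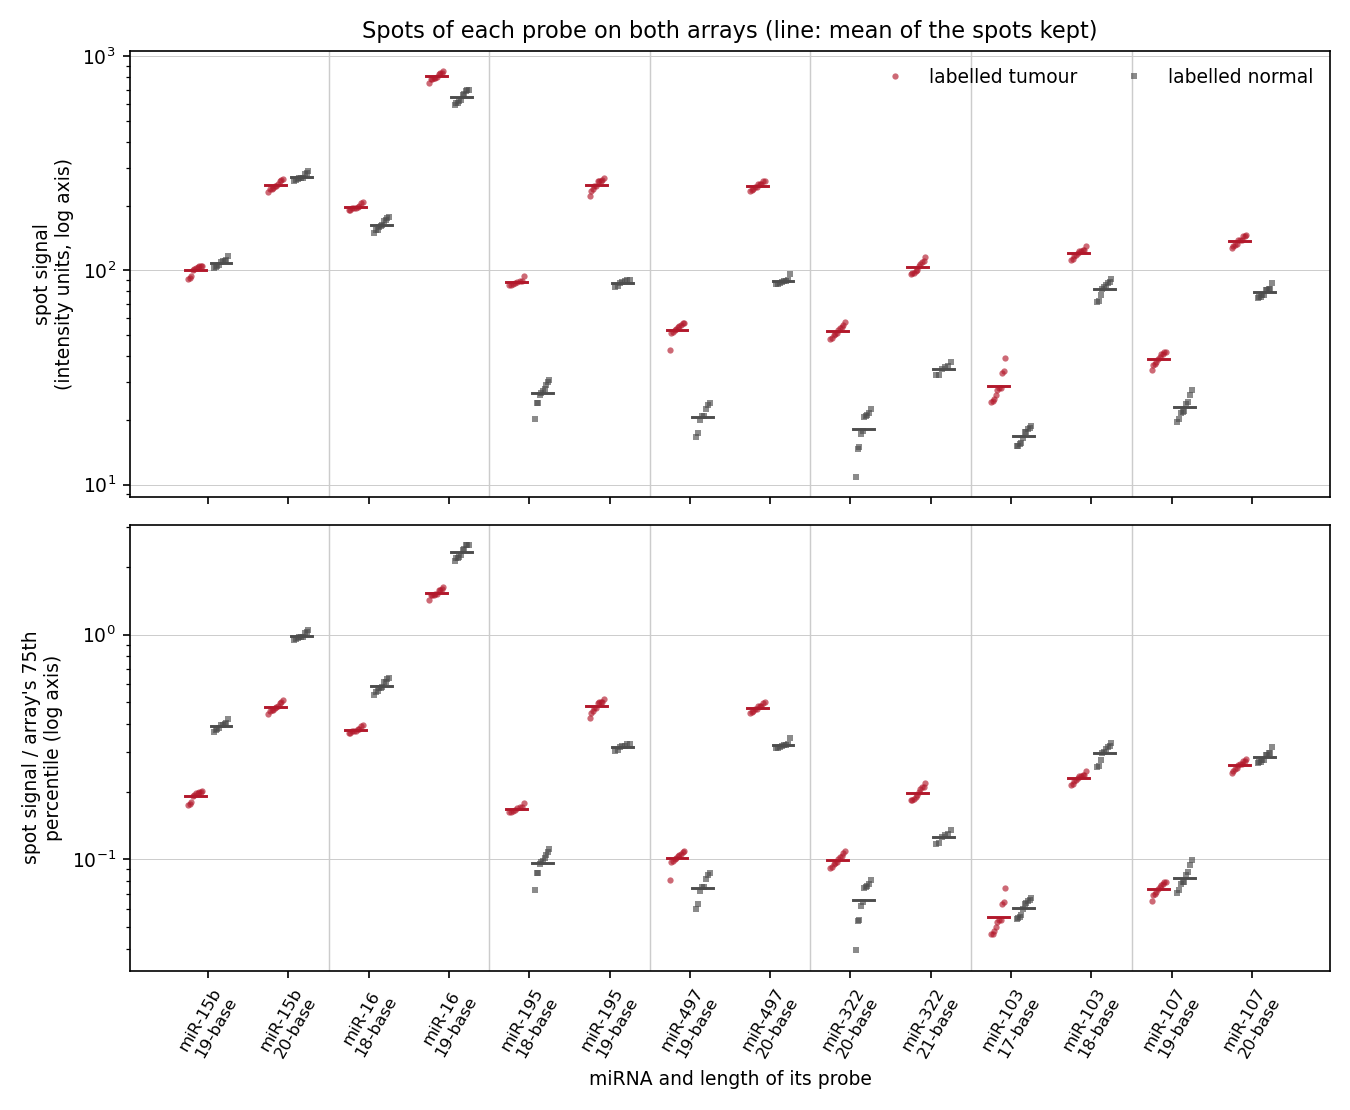
Spot signals of the 14 probes of miR-15b, miR-16, miR-195, miR-497, miR-322, miR-103 and miR-107, in intensity units (upper) and after division by the array's 75th percentile (lower), both on log axes, for the tumour-labelled array (circles) and labelled normal (squares), with the mean of the spots kept as a line. The spots of miR-195, miR-497 and miR-322 stand higher on the tumour-labelled array in both panels, except that those of the 19-base probe of miR-497 overlap in the lower panel, while those of miR-15b overlap between the arrays in the upper panel and stand lower on the tumour-labelled array in the lower panel.

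miR-15b and miR-16 are known to be processed from an intron of Smc4 and are expressed in most tissues. On the tumour-labelled array the 19-base probe of miR-15b gave 100.1 ± 5.33 intensity units (SD, 10 spots), and on the normal-labelled array 109 ± 4.69 (SD, 9 spots). Its 20-base probe gave 250.3 ± 11.5 (SD, 10 spots) and 274 ± 10.01 (SD, 9 spots). Before scaling the spots of both probes overlapped between the arrays, and the normal-labelled array was slightly brighter. After scaling the level of miR-15b was 0.301 on the tumour-labelled array and 0.622 on the normal-labelled array, a log2 ratio of -1.05 (spot SE 0.02). Its 2 probes differed by only 0.013 on that scale.

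The 18-base probe of miR-16 gave 198 ± 5.85 intensity units on the tumour-labelled array (SD, 9 spots) and 164 ± 9.63 on the normal-labelled array (SD, 10 spots). Its 19-base probe, the brightest of the 16, gave 806 ± 31.4 and 646 ± 40.7 (SD, 10 spots each). Here the tumour-labelled array was brighter before scaling, with no overlap of spots, by 1.21-fold and 1.25-fold. After scaling the order turned, to levels of 0.761 and 1.17 and a log2 ratio of -0.62 (spot SE 0.02). miR-16 thus stood 0.42 above miR-15b on the log2 scale (spot SE 0.03), a gap that no scaling by a common factor can change. Of the 15 alternative ways of processing, 9 could change a gap between members. Among the 9, dropping or tightening the filter on dim probes could not change this gap. Every kept spot of both miRNAs was well above background. The gap kept its sign in the rest of the 9.

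miR-195 and miR-497 are known for holding cardiac and skeletal muscle cells out of the cell cycle. The 18-base probe of miR-195 gave 88.2 ± 2.83 intensity units on the tumour-labelled array (SD, 8 spots) and 26.7 ± 3.21 on the normal-labelled array (SD, 10 spots). Its 19-base probe gave 252 ± 15.4 (SD, 10 spots) and 87.7 ± 2.48 (SD, 7 spots). No spot of either probe overlapped between the arrays, before or after scaling, and the unscaled signals were 3.31-fold and 2.87-fold apart. The scaled levels were 0.283 and 0.174, a log2 ratio of 0.70 (spot SE 0.03), the highest of the 7 with the processing used here. The 18-base probe gave 0.81 and the 19-base probe 0.60. Their gap of 0.21 was the largest between the probes of a member. With the brightest probe of each alone, miR-195 was at 0.60, below miR-322 at 0.66.

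For miR-497 the 19-base probe gave 53.0 ± 4.17 intensity units on the tumour-labelled array (SD, 10 spots) and 20.7 ± 2.67 on the normal-labelled array (SD, 8 spots). The 20-base probe gave 248 ± 9.56 (SD, 10 spots) and 89.3 ± 3.08 (SD, 8 spots). The shorter probe was near the detection limit on the normal-labelled array, and its scaled spots overlapped between the arrays, while those of the longer did not. The log2 ratio of miR-497 was 0.49 (spot SE 0.04), 0.21 below miR-195 (spot SE 0.05). With the brightest probe of each alone, that gap was 0.045. The pair's mean was 0.60 (spot SE 0.03), and 1.52 before scaling.

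miR-322, the rat counterpart of human miR-424, is known for promoting cell-cycle exit in differentiating muscle precursors. Its 20-base probe gave 52.2 ± 3.09 intensity units on the tumour-labelled array and 18.2 ± 3.79 on the normal-labelled array (SD, 10 spots each). The 21-base probe gave 103.8 ± 6.70 (SD, 10 spots) and 34.7 ± 1.95 (SD, 6 spots). The 20-base probe was the dimmest probe that counted as detected on the normal-labelled array, with 60% of its spots well above background. The log2 ratio of miR-322 was 0.63 (spot SE 0.05), and its probes differed by 0.06.

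miR-503, its neighbour on the X chromosome and also a repressor of cell-cycle genes, was not well above background at any spot of either array. Its 15-base probe had means of -4.25 and -3.95 intensity units on the tumour-labelled and normal-labelled arrays, and its 16-base probe -0.33 and 0.758. The 672 negative control spots of each array averaged 1.21 and 2.64. The pair miR-322/miR-503 could therefore be compared through miR-322 alone. The probes of miR-503 cover only bases from position 8 or 9 to the end, whereas those of miR-322 begin at position 2 or 3.

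Of the star forms and cluster neighbours listed for the 8 miRNAs, 5 were on the array: miR-322*, miR-351, miR-450a, miR-542-3p and miR-542-5p, all from the X-chromosome cluster of miR-322 and miR-503 or next to it. None of the 5 was detected on either array, with no probe mean above 2.36 intensity units. miR-322 was thus the only one of the listed products of that region with signal on these arrays.

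miR-103 and miR-107 differed less between the arrays than the other 5 with the scaling used here, but not under every alternative. With positive control features as the scale miR-16 was at 0.071 and miR-107 at 0.55, and with normexp miR-497 was at -0.036 and miR-107 at -0.43. The 18-base probe of miR-103 gave 120.7 ± 5.38 intensity units on the tumour-labelled array (SD, 10 spots) and 82.0 ± 7.11 on the normal-labelled array (SD, 9 spots). Its 17-base probe gave 29.0 ± 4.80 and 16.8 ± 1.43 (SD, 10 spots each) and was not counted as detected on the normal-labelled array, where 50% of its spots were well above background and more than 50% were needed. The log2 ratio of miR-103 therefore rests on 1 probe and was -0.36 (spot SE 0.05). The shorter probe had scaled levels of 0.055 on the tumour-labelled array and 0.061 on the normal-labelled array. With its signal on the normal-labelled array raised to the floor of 18.2 intensity units, which lowers the ratio, it gave -0.25.

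For miR-107 the 20-base probe gave 137 ± 6.58 and 79.2 ± 4.18 intensity units on the tumour-labelled and normal-labelled arrays (SD, 10 spots each). The 19-base probe gave 38.7 ± 2.47 (SD, 10 spots) and 23.0 ± 2.66 (SD, 9 spots). The scaled spots of both probes overlapped between the arrays, and the log2 ratio was -0.15 (spot SE 0.04). Before scaling the same spots did not overlap, with the tumour-labelled array 1.73-fold and 1.69-fold brighter. The sign for miR-107 thus depended on the scaling. It was negative in 7 of the 13 alternatives that could change the ratio of some member and do not repeat another. Among these 7, using no filter on dim probes could not change that of miR-107, because both arrays detected both of its probes.

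**Figure D2:**
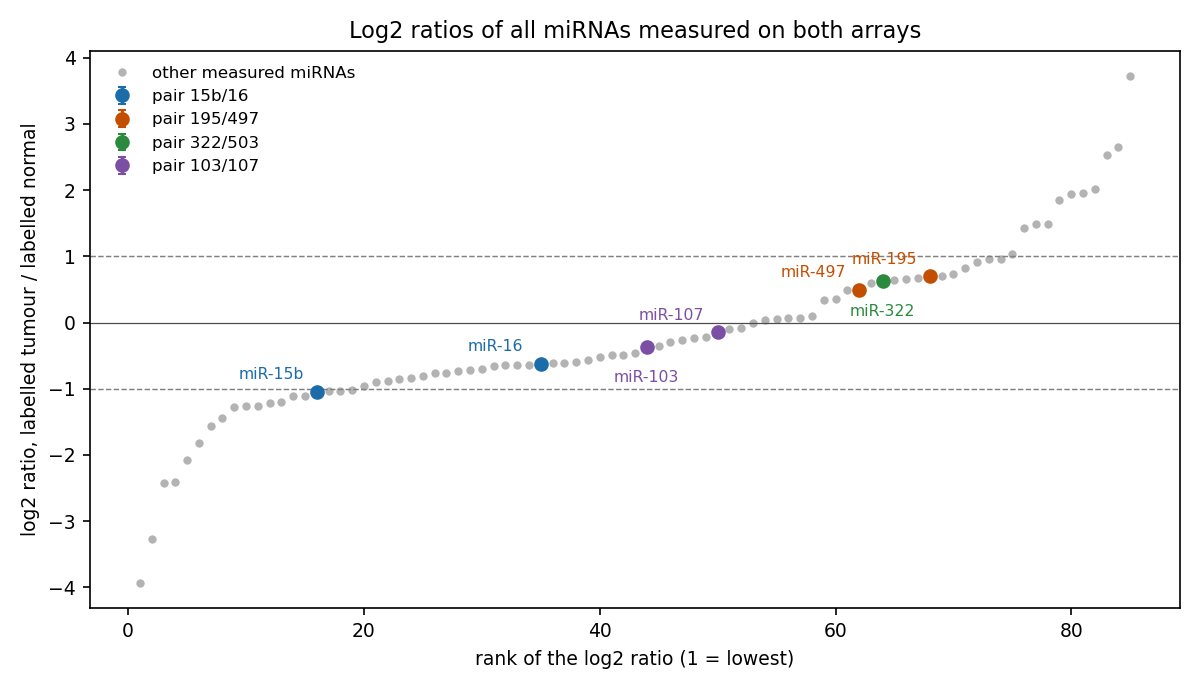
Log2 ratios of the tumour-labelled array over the normal-labelled array for the 85 miRNAs measured on both arrays, in rank order, with the 7 measured members in the colour of their pair and bars of 1 spot SE, mostly hidden by the points. Dashed lines mark 2-fold; miR-15b at -1.05 is the 1 member beyond them, and miR-195, miR-322 and miR-497 lie together between 0.49 and 0.70.

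Ordered by log2 ratio the 7 were miR-195, miR-322, miR-497, miR-107, miR-103, miR-16 and miR-15b. miR-195 and miR-322, from different chromosomes, differed by 0.07 (spot SE 0.06), a gap about as large as its SE. miR-322 and miR-497 differed by 0.14 (spot SE 0.07). The largest step in this order, 0.64, lay between miR-497 and miR-107. miR-103 and miR-16 were 0.26 apart, less than the 0.42 between miR-16 and miR-15b. The pair miR-195/miR-497 stood 1.43 above miR-15b/miR-16 on the log2 scale (spot SE 0.03), or 2.70-fold. All 4 of these miRNAs share 1 seed. miR-322, also with that seed, stood 1.46 above miR-15b/miR-16 (spot SE 0.06). The pair miR-103/miR-107 stood 0.58 above miR-15b/miR-16 (spot SE 0.03) and 0.85 below miR-195/miR-497 (spot SE 0.04).

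These differences between pairs hold no common scale factor, unlike the ratios themselves. The 75th percentiles of the arrays differed 1.89-fold, so without scaling every ratio was higher by 0.92: miR-15b/miR-16 was then at 0.087, miR-103/miR-107 at 0.67, miR-195/miR-497 at 1.52 and miR-322 at 1.55. Unscaled, 3 of the 7 were at least 2-fold higher on the tumour-labelled array, miR-195, miR-497 and miR-322, where 32.9% of the 85 were, and 0 were at least 2-fold lower, where 5.88% were. With the 75th percentile of all probes, miR-195 and miR-322 were at least 2-fold higher, where 27.1% of the 85 were, and with positive control features as the scale miR-195, miR-497 and miR-322 were, where 31.8% were. With muscle miRNAs left out of the percentile only miR-195 was, where 21.2% were. In these last 3 settings 0 members were at least 2-fold lower, where 8.24%, 7.06% and 9.41% were. Normexp called 0 members in either direction, where 3.53% of the 85 were higher and 9.41% lower, and so did the software's total gene signal, where 17.3% of 104 miRNAs were higher and 14.4% lower. Of the 15 alternatives, 5 leave every difference between members as it is by construction (4 common factors, and the median over at most 2 probes) and 1 repeats another. In each of the other 9, miR-195, miR-497 and miR-322 all lay above miR-103 and miR-107, and these both lay above miR-15b and miR-16. The size of the step was less firm: miR-195/miR-497 minus miR-15b/miR-16 was at least 1 in 8 of the 9. Among these 8, using no filter on dim probes could not change it, because both arrays detected every probe of these miRNAs. The step was 0.76 with normexp, a background correction that adds an offset of 50 intensity units.

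**Figure D3:**
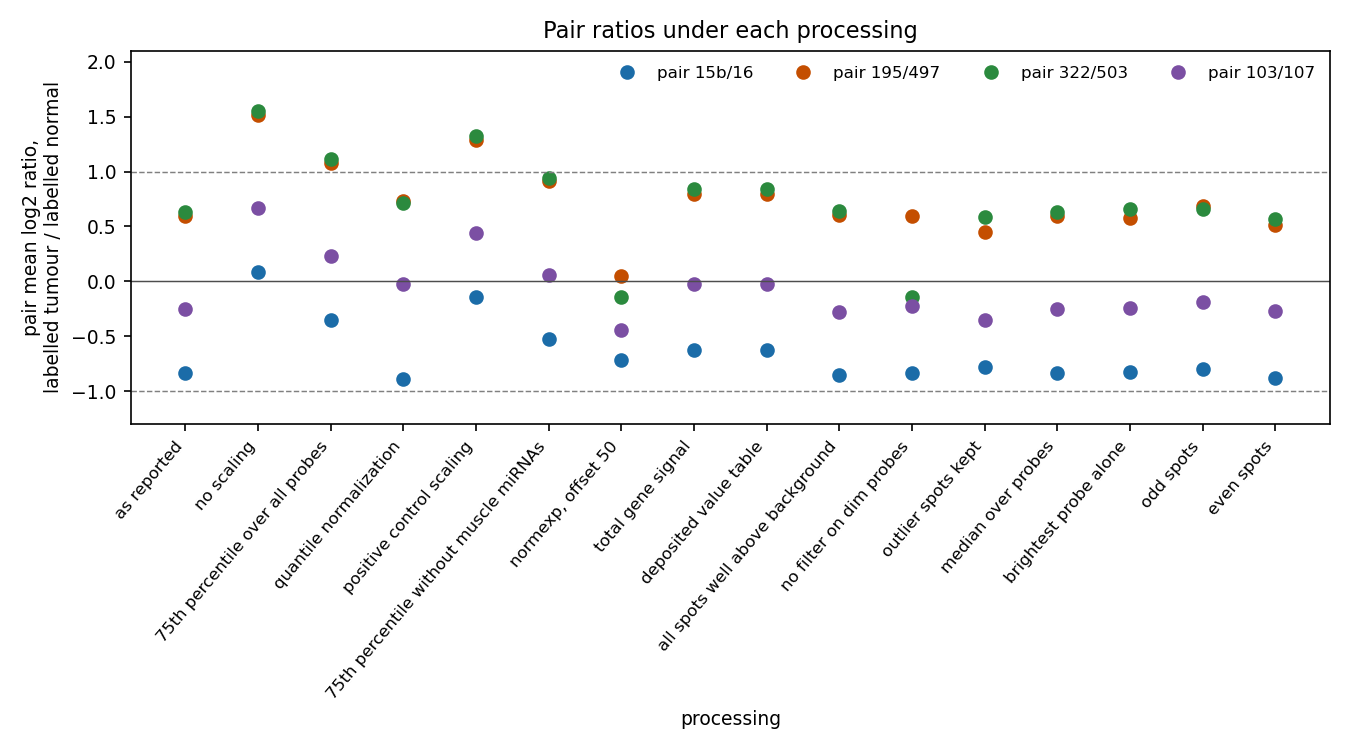
Mean log2 ratio of each pair, labelled tumour over labelled normal, as reported and under the 15 other ways of processing, with dashed lines at 2-fold. The pair miR-322/miR-503 is miR-322 alone except with no filter on dim probes; the points of miR-195/miR-497 lie above those of miR-103/miR-107 and these above miR-15b/miR-16 in every column, while the distance of all points from 0 changes with the scaling.

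Over probes, 10 of the 13 measured on both arrays had scaled spots that did not overlap between the arrays. The share without overlap was 83.6% over all 140 such probes. Unscaled, 11 of the 13 had none that overlapped, and the share without overlap over the 140 was 72.9%. The 2 that overlapped were those of miR-15b. The 3 that overlapped after scaling were both probes of miR-107 and the 19-base probe of miR-497. The CV over spots was 2.83% to 20.8% over the measured probes, the highest being that of the dim 20-base probe of miR-322. Spots show the technical spread within an array and not that between animals.

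Probes of related miRNAs can take up each other's RNA. miR-16 and miR-195 are nearly alike beyond the seed, and they are printed with their differences in capitals.
miR-16: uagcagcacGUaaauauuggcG
miR-195: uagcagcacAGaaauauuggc
They differ by G10A and U11G, with the base of miR-16 first and positions counted from the 5′ end, and miR-195 is 1 base shorter. The probes of miR-195 have 2 mismatches to miR-16. Their log2 ratios stood 1.33 apart (spot SE 0.04). Any exchange of signal between the probes was not tested.

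miR-103 and miR-107 differ by a lone base near the 3′ end, the part their probes bind.
miR-103: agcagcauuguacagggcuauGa
miR-107: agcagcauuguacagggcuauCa
The change is G22C, with the base of miR-103 first. Each probe of either miRNA therefore has 1 mismatch to the other, and the log2 ratios were 0.22 apart (spot SE 0.06). How far the 2 were measured separately was not tested. Probes of miR-15b have 5 mismatches to miR-497 and to miR-322, and those of miR-497 and miR-322 have 5 to miR-15b.

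miRNAs of neighbouring genes often come from 1 transcript, so the miR-195/miR-497 and miR-15b/miR-16 gaps were set beside those of other neighbours. Among the measured miRNAs matched to RefSeq by sequence, 76 of 85, 33 pairs lay within 10 kb of each other on the same strand. Their log2 ratios differed by a median of 0.27, against 1.096 over all 3570 pairs of measured miRNAs. The gap of miR-195/miR-497, 0.21, ranked 15th of the 33 from the smallest, and that of miR-15b/miR-16, 0.42, ranked 25th. These ranks hold for the processing used here and were not taken again under the alternatives. The gap of miR-195/miR-497 was 0.045 with the brightest probe alone and 0.57 with outlier spots kept. Several of the 33 pairs share members or have similar probes, so they are not independent.

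**Figure D4:**
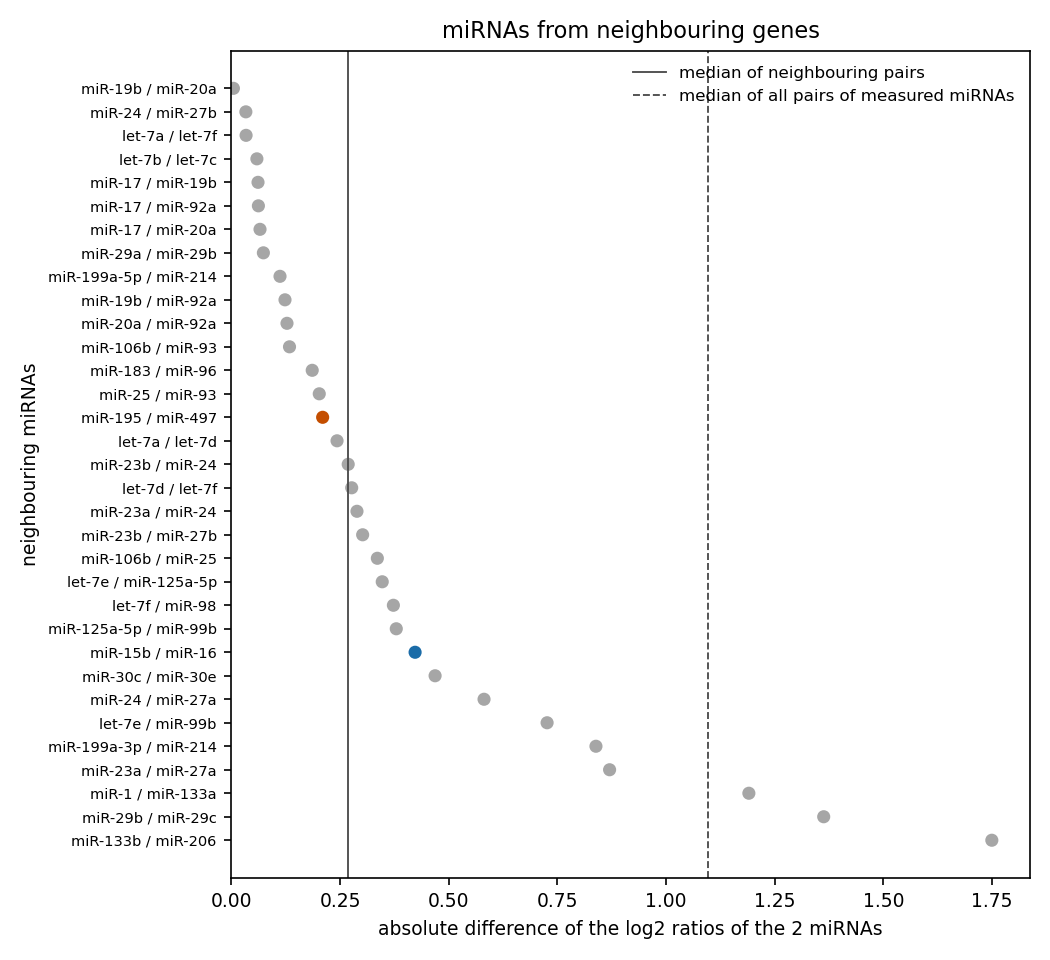
Absolute difference of the log2 ratios of 2 measured miRNAs whose genes lie within 10 kb on 1 strand, for the 33 such pairs in order of size, with miR-195 / miR-497 in orange and miR-15b / miR-16 in blue. The solid line is the median of these pairs, 0.27, and the dashed line that of all pairs of measured miRNAs, 1.096; both coloured points lie left of the dashed line.

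The miRNAs outside the group whose ratios were nearest, by absolute difference of log2 ratios over the 2 arrays, were taken for each member, 2 at a time. For miR-15b they were the keratinocyte miRNA miR-205 (-1.04) and miR-146a (-1.04), and for miR-16 the epithelial miR-200b (-0.61) and the p53 target miR-34a (-0.64). For miR-195 they were miR-99a (0.71) and the endothelial miRNA miR-126 (0.68). miR-30d (0.49) and miR-22 (0.60) were nearest to miR-497, and miR-30b-5p (0.65) and miR-22 to miR-322. For miR-103 they were let-7i (-0.35) and miR-98 (-0.30), and for miR-107 miR-125b-5p (-0.10) and miR-345-5p (-0.09). With 2 arrays such likeness is a single matching number.

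Other miRNAs tied to the cell cycle, 13 of them on the array, were measured in 10 cases. Of the 10, 3 had a log2 ratio above 0, as did 32 of all 85, and 0 were at least 2-fold apart in either direction, where 35.3% of the 85 were. Their median was -0.58, against -0.46 over the 85. The E2F-induced miR-106b was at -0.85 and miR-93 at -0.72, near miR-15b and miR-16. miR-26b and miR-26a, which repress cyclins and CDK6, were at 0.96 each, above miR-195. Unscaled, all 10 lay above 0, from 0.069 to 1.88, as did 6 of the 7 members and 65 of all 85. Of the 10, 3 were then at least 2-fold higher (let-7a, miR-26a and miR-26b), where 32.9% of the 85 were.

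Other markers are given beside these values. miR-451, of red blood cells, where miR-16 is also abundant, had a log2 ratio of 1.04, and its partner miR-144 was detected on neither array. Of the stromal and vascular list 4 of 5 were measured, between -1.44 (miR-214) and 0.82 (miR-143), with summed levels of 1.71 and 1.82. Of the leukocyte list 3 of 4 on the array were measured, with summed levels of 0.470 on the tumour-labelled array and 0.994 on the normal-labelled array. These 3 did not move together: miR-223 was at -2.41 and miR-142-3p at -1.82, while miR-150 was at 1.43. Their part in the values of miR-15b, miR-16, miR-195, miR-497 and miR-322 was not tested.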

How the data were processed

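Cy3-labelled RNA was read on 2 arrays, 1 labelled tumour and 1 labelled normal. Agilent Feature Extraction 10.5.1.1 gave the deposited intensity values, with background subtraction and spatial detrending, per the file headers, and were not normalized between arrays. The labels name a labelling kit for messenger RNA; the sources used here do not say how miRNA was labelled. For miRNAs with a total gene signal of at least 1 (182 and 173 of 350), the deposited value table holds that signal to a relative tolerance of 1e-06; below 1 the values differ.

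Spots of a probe not marked as outliers were averaged (3 and 16 of 160 member spots left out; 0 saturated). To count as detected, a probe needed more than 50% of its spots well above background. Signals were divided by the 75th percentile, per array, of the 140 probes that both arrays detected (525.6 and 277.5 intensity units), with the dimmest detected probe (18.3 and 18.2) as the floor. Log2 ratios were averaged over the probes of a miRNA that both arrays detected, and SEs come from spots. Normexp used limma 3.58.1. The steps were tested on simulated data. The shift left by the scaling was taken out before errors were scored, so the scaling itself was not tested.

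All 8 members, the 2 nearest other miRNAs, star forms and neighbours, and cell-cycle and cell type lists are named. Members, lists and 15 alternatives were chosen with earlier results of these data known. The number of arrays limits the precision.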

Additional observations from a re-analysis of the deposited data

How the results depend on the processing

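No paired analysis was possible because each group has 1 array. A value is said to move where it changed by more than 1 SD over spots. Without scaling the pair means were 0.087 (miR-15b/miR-16), 1.52 (miR-195/miR-497), 1.55 (miR-322/miR-503) and 0.67 (miR-103/miR-107), and 3 members were at least 2-fold higher and 0 lower. With the 75th percentile over all probes they were -0.35, 1.08, 1.11 and 0.23, with 2 higher and 0 lower. Scaling on 19 positive control features gave -0.14, 1.29, 1.32 and 0.44, with 3 higher and 0 lower. Leaving muscle miRNAs out of the percentile gave -0.52, 0.91, 0.94 and 0.057, with 1 higher and 0 lower. The median of all 85 ratios moved by 0.92, 0.48, 0.69 and 0.31 in these settings. Of the 85, 32.9%, 27.1%, 31.8% and 21.2% were at least 2-fold higher in them, and 5.88%, 8.24%, 7.06% and 9.41% lower. The total gene signal and the deposited value table, equal for signals of at least 1, both gave -0.62, 0.80, 0.84 and -0.023, with 0 lower. With either, 14.4% of 104 miRNAs were at least 2-fold lower.

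Quantile normalization gave -0.89 (miR-15b/miR-16), 0.73 (miR-195/miR-497) and -0.024 (miR-103/miR-107), and differences of 1.63 (miR-195/miR-497 minus miR-15b/miR-16) and 0.87 (miR-103/miR-107 minus miR-15b/miR-16). Normexp gave pair means of -0.72, 0.046, -0.14 and -0.44, with 0 lower, where 9.41% of the 85 were. Its differences from miR-15b/miR-16 were 0.76 (miR-195/miR-497), 0.57 (miR-322/miR-503) and 0.28 (miR-103/miR-107). That of miR-195/miR-497 from miR-103/miR-107 was 0.49, and miR-103 minus miR-107 was -0.018. The offset of normexp is as large as the signal of several of these probes. With no filter on dim probes the pair miR-322/miR-503 was at -0.14 and 0.69 above miR-15b/miR-16, because miR-503 then enters at -0.92, the ratio of the 2 array floors.

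With outlier spots kept, the pair means were -0.78 (miR-15b/miR-16), 0.45 (miR-195/miR-497) and -0.35 (miR-103/miR-107), the differences from miR-15b/miR-16 were 1.23 and 0.43, and miR-195 minus miR-497 was 0.57. The brightest probe alone brought miR-195 minus miR-497 to 0.045, and odd and even spots gave 0.68 and 0.51 for miR-195/miR-497. For these outlier and spot settings the cause was not tested. The gap of miR-195/miR-497 over miR-15b/miR-16 ran from 0.76 to 1.63 and that of miR-16 over miR-15b from 0.34 to 0.46 over all 15. On the normal-labelled array the 20-base probe of miR-322 was itself the dimmest detected, and both probes of miR-503 lay below it.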
